A study of Mus musculus with 12 samples.

Results

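The genes examined here encode the enzymes that make serine and carry its one-carbon units on folate, namely Phgdh, Psat1, Psph, Shmt1, Shmt2, Mthfd1, Mthfd2, Mthfd1l, Aldh1l1 and Aldh1l2. They were taken from the deposited read counts by gene symbol, matched from the Ensembl identifier, and all 10 of the 10 were found among the 37681 genes of the table. All 10 also passed the filter on low counts that left 19399 genes to be tested. RNAseq was performed on a thin outer slice of kidney cortex from male C57BL/6 mice that were 18 months old and untreated. The 3 TG+ mice (43-29, 43-49 and 43-75) are TRACK mice, which carry the γ-HIF1αM3 transgene, a mutated and constitutively active HIF1α that the study expresses in renal proximal tubules from the GGT (gamma-glutamyl transferase) promoter. The 3 TG- mice (43-26, 43-50 and 43-76) are littermates without it. Each mouse gave 2 libraries, from its 2 kidneys, and the reads of both were summed, so that a mouse is 1 replicate.

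Serine is made from the glycolytic intermediate phosphoglycerate in a sequence of 3 steps, catalysed by Phgdh, Psat1 and Psph. Serine hydroxymethyltransferases then move a carbon from serine to tetrahydrofolate, and the Mthfd enzymes oxidise that unit to formate or reduce it again. The Aldh1l enzymes take the formyl unit off the folate as carbon dioxide while NADPH is formed. Cytosol and mitochondria each have a set of these enzymes, Shmt1, Mthfd1 and Aldh1l1 in the cytosol and Shmt2, Mthfd2, Mthfd1l and Aldh1l2 in mitochondria, and the units serve purine, thymidylate and methionine synthesis. Healthy kidney cortex is a site of serine synthesis, and the proximal tubule is its main epithelium. Mthfd2 is known as an enzyme of embryonic and proliferating cells that is scarce in most adult tissues.

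Of the 10 genes, 4 rose by more than 2-fold in TG+ kidney cortex, and none fell by as much. The 4 genes are Phgdh and the mitochondrial genes Mthfd2, Mthfd1l and Aldh1l2. The term called stands for the study's own limits, a change of more than 2-fold or to less than 0.5-fold together with an adjusted p under 0.01. The p-values come from the quasi-likelihood test of edgeR and were adjusted by the Benjamini-Hochberg method over all genes tested. Of all those genes, 3.77% were called higher by this rule and 0.211% lower. The 3 cytosolic genes Shmt1, Mthfd1 and Aldh1l1 were each lower by less than 2-fold at an adjusted p below 0.05, a rule without a minimum fold that 10.9% of all genes met in that direction and 15.4% in the other. They were also below 0.01, as were 4.25% of all genes in that direction. Without adjustment, 3 of the 10 genes were lower and 5 higher at a p below 0.05, beside 17.2% and 21.9% of all genes, and DESeq2 called the same number of genes, 4 higher and 0 lower, where it called 4.23% of all genes higher and 0.247% lower. Psat1, Psph and the mitochondrial Shmt2 met neither rule.

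Between 48052131 and 60506785 reads per mouse were counted on genes, and the TMM factors used to scale them lay between 0.944 and 1.06. The coefficient of biological variation between mice of a genotype was 0.114. Levels are given as CPM, the read count relative to the TMM-scaled library, in each mouse in the order in which the mice are named above. Because a slice of cortex holds many cell types, fewer cells of a type and less RNA per cell cannot be told apart in any of the values below. The 20 proximal tubule markers listed for this comparison were all detected in this tissue. No row of the table is the transgene's own, and Hif1a stood at 86.3 to 109 CPM in TG+ and at 103 to 107 CPM in TG- mice.

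The stretches of 250 bases before the RefSeq start site of 4 of the genes are printed here because Phgdh, Mthfd2 and Mthfd1l rose together in TG+ cortex while Aldh1l1 was the enzyme gene with the largest fall. They are RefSeq promoter sequences of GRCm38.p6, written 5′ to 3′ on the strand of the gene, at chr3:98339970-98340219 (minus strand) for Phgdh, chr6:83317605-83317854 (minus strand) for Mthfd2, chr10:3972825-3973074 (plus strand) for Mthfd1l and chr6:90550543-90550792 (plus strand) for Aldh1l1. The start sites of Mthfd2 and Aldh1l1 lie 8304 and 64366 bases inside the spans of these genes given below, which take in transcripts that start further upstream, and 2 and 4 bases from the start of a protein-coding GENCODE transcript. Capitals mark matches to the core of the hypoxia response element that HIF binds, searched as ACGTG or GCGTG on both strands.
Phgdh: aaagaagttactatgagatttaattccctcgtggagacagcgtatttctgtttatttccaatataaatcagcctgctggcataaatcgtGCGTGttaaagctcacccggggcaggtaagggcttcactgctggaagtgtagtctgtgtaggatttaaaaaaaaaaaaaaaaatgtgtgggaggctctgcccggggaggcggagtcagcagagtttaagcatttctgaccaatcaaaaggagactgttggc
Mthfd2: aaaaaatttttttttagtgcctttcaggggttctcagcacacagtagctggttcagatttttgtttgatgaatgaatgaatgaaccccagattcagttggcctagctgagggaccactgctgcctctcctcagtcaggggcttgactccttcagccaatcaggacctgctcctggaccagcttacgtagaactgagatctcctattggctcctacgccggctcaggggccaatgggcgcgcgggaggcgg
Mthfd1l: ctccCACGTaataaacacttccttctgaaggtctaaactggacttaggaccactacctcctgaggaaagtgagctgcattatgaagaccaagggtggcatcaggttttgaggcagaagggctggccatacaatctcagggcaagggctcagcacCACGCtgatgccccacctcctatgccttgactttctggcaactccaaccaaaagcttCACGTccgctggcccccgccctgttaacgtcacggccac
Aldh1l1: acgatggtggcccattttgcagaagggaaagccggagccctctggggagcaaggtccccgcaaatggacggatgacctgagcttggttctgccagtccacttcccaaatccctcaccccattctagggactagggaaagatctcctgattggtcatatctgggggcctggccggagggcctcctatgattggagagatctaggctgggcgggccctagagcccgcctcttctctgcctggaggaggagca
The windows searched ran from 250 bases before to 50 bases after the start site, 300 bases in all, and 9 of the 10 genes had at least 1 window in the promoter table, Aldh1l2 being the gene without an entry. The core was found in 7 of these 9 genes, and in 43.8% of the 32851 windows of the same length. Psat1 was searched in 2 windows. Of the genes shown, Phgdh held 1 match, which begins 161 bases before its start site, Mthfd1l held 3, beginning 246, 96 and 39 bases before it, and Mthfd2 and Aldh1l1 held none. The CEBP-ATF response element at which ATF4 binds, searched as TGATGNAA on both strands (matches to the 2 motifs can share letters at their ends), was in none of the 9 genes and in 3.97% of all windows. A match describes letters only, and these short windows leave out any more distant site.

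Phgdh, the dehydrogenase that commits phosphoglycerate to serine, was the serine synthesis gene that rose. Phgdh (ENSMUSG00000053398, chromosome 3 from 98313170 to 98339990 on GRCm38, minus strand) was measured at 6.81, 9.04 and 7.61 CPM in TG+ and at 2.61, 2.38 and 2.15 CPM in TG- mice, from between 105 and 513 reads per mouse. The lowest TG+ mouse was above the highest TG- mouse. Its mean rose from 2.38 ± 0.232 to 7.82 ± 1.13 CPM (SD, n = 3 each), a 3.28-fold change (log2 fold change 1.72, standard error 0.14, adjusted p = 1.82e-04).

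The 2 genes downstream of Phgdh were not called. Psat1, the aminotransferase of the second step (ENSMUSG00000024640, chromosome 19 from 15904678 to 15947337, minus strand), stood at 30.2, 42.7 and 40.9 CPM in TG+ and at 30.2, 45.5 and 31.6 CPM in TG- mice. Its groups overlapped over nearly their whole range, and the highest value of all was that of the TG- mouse 43-50. The log2 fold change of Psat1 was 0.08 (95% interval -0.34 to 0.50, adjusted p = 0.777). Psph, the phosphatase of the last step (ENSMUSG00000029446, chromosome 5 from 129765558 to 129787449, minus strand), stood at 12.6, 15.1 and 14.8 CPM in TG+ and at 15.5, 16.3 and 14.7 CPM in TG- mice, with groups that overlapped. Its log2 fold change was -0.13 (95% interval -0.33 to 0.07, adjusted p = 0.311), so the intervals of both genes leave out a change as large as that of Phgdh. Psph shares 452 of its 4329 exonic bases with Cct6a on the other strand (log2 fold change of Cct6a -0.08, adjusted p = 0.295), and the use of strand in counting is not given in the sources used here.

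**Figure D1:**
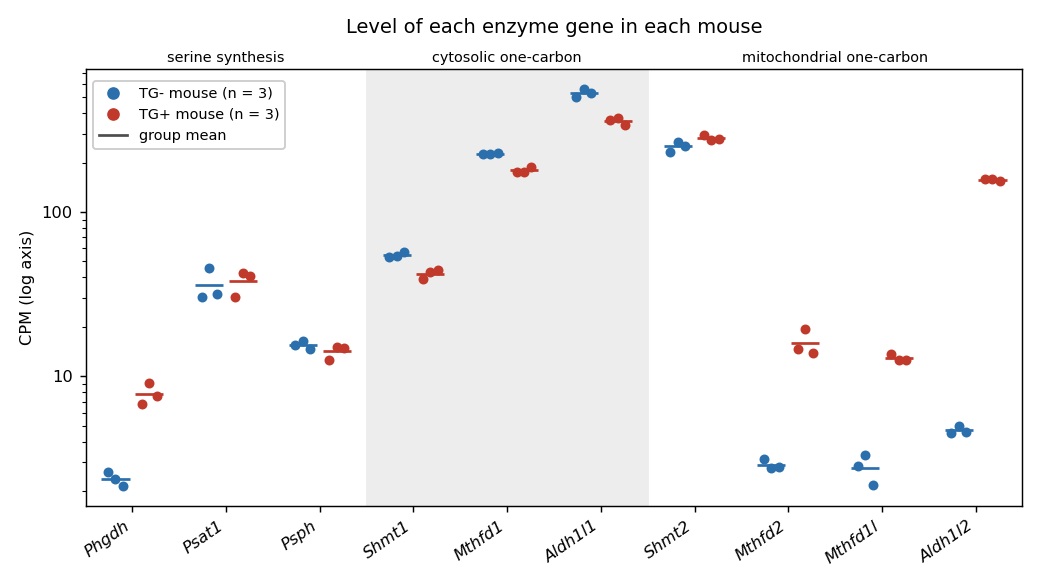
Level of the 10 genes in CPM on a log axis, with each point a mouse (blue TG-, red TG+, n = 3 each) and each bar a group mean. The red points of Phgdh, Mthfd2, Mthfd1l and Aldh1l2 lie far above the blue ones, those of the 3 cytosolic genes lie below them, and those of Psat1 and Psph are mixed with them.

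The largest change of all 10 genes was that of Aldh1l2. Aldh1l2, which oxidises formyl-folate in mitochondria and is a source of NADPH there (ENSMUSG00000020256, chromosome 10 from 83487450 to 83534140, minus strand), was measured at 159, 159 and 154 CPM in TG+ and at 4.48, 4.97 and 4.59 CPM in TG- mice. The values of the TG+ mice lay close together, and so did those of the TG- mice, far below them. From between 224 and 284 reads per TG- mouse and between 7752 and 9022 reads per TG+ mouse, the mean rose from 4.68 ± 0.258 to 157.5 ± 2.74 CPM (SD, n = 3 each). This is a 33.6-fold change (log2 fold change 5.07, standard error 0.0659, adjusted p = 2.97e-08). Aldh1l2 had the smallest p of the 19399 genes tested and ranked 57 among them by log2 fold change, or 9 among the 15828 genes with a mean of at least 1 CPM in TG-. Aldh1l2 shares 1056 of its 7503 exonic bases with D10Wsu102e, which lies on the other strand. That gene stood at 70.6, 40.2 and 65.8 CPM in TG+ and at 56.6, 36.7 and 41.0 CPM in TG- mice, with groups that overlapped (log2 fold change 0.39, adjusted p = 0.243).

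Mthfd2, the mitochondrial dehydrogenase and cyclohydrolase (ENSMUSG00000005667, chromosome 6 from 83305691 to 83325908, minus strand), was measured at 14.7, 19.3 and 13.8 CPM in TG+ and at 3.14, 2.75 and 2.78 CPM in TG- mice. The TG+ mouse 43-49 was the highest, as it was for Phgdh, and the groups were far apart. Mthfd2 rose from 2.89 ± 0.216 to 15.9 ± 2.93 CPM (SD, n = 3 each), a 5.52-fold change (log2 fold change 2.46, standard error 0.15, adjusted p = 3.66e-05). Mthfd1l, the mitochondrial synthetase that releases formate (ENSMUSG00000040675, chromosome 10 from 3973118 to 4167081, plus strand), was measured at 13.7, 12.6 and 12.5 CPM in TG+ and at 2.85, 3.29 and 2.17 CPM in TG- mice. Here too the groups were far apart, but 43-49 was not the highest of the TG+ mice. Mthfd1l rose from 2.77 ± 0.565 to 12.9 ± 0.658 CPM (SD, n = 3 each), a 4.66-fold change (log2 fold change 2.22, standard error 0.14, adjusted p = 6.56e-05). Neither gene shares exonic bases with another gene of the annotation.

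Shmt2, the mitochondrial hydroxymethyltransferase that draws the carbon from serine (ENSMUSG00000025403, chromosome 10 from 127517123 to 127522444, minus strand), was abundant in both genotypes and was not called. It stood at 294.9, 274.9 and 276.9 CPM in TG+ and at 233.1, 265.6 and 254.1 CPM in TG- mice. The groups did not overlap, as was the case in this direction for 23.4% of all genes tested, but the lowest TG+ mice were close to the highest TG- mouse. The log2 fold change was 0.17 (standard error 0.0650, 95% interval 0.02 to 0.32, adjusted p = 0.0926), a 1.12-fold difference that met neither rule. The interval leaves out a change of the size seen for the other 3 mitochondrial genes.

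Shmt2 lies tail to tail with Ndufa4l2, a mitochondrial protein gene induced by HIF1α, and reads of the induced neighbour could be counted on it. Ndufa4l2 (chromosome 10 from 127514967 to 127517154, plus strand) rose from 3.22 ± 0.772 to 202 ± 37.6 CPM (SD, n = 3 each). The exons of the 2 genes share 32 bases, from 127517123 to 127517154, which are 2.92% of the exonic length of Ndufa4l2 and 1.03% of that of Shmt2. With 2.92% of the Ndufa4l2 reads of each mouse taken off its Shmt2 reads, Shmt2 stood at 287.9, 270.1 and 270.9 CPM in TG+ and at 233, 265.5 and 254 CPM in TG- mice. The groups still did not overlap, and the log2 fold change was 0.14 (adjusted p = 0.151). The subtraction assumes reads spread evenly along the exons, and reads crowded at the ends of transcripts would not follow it.

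**Figure D2:**
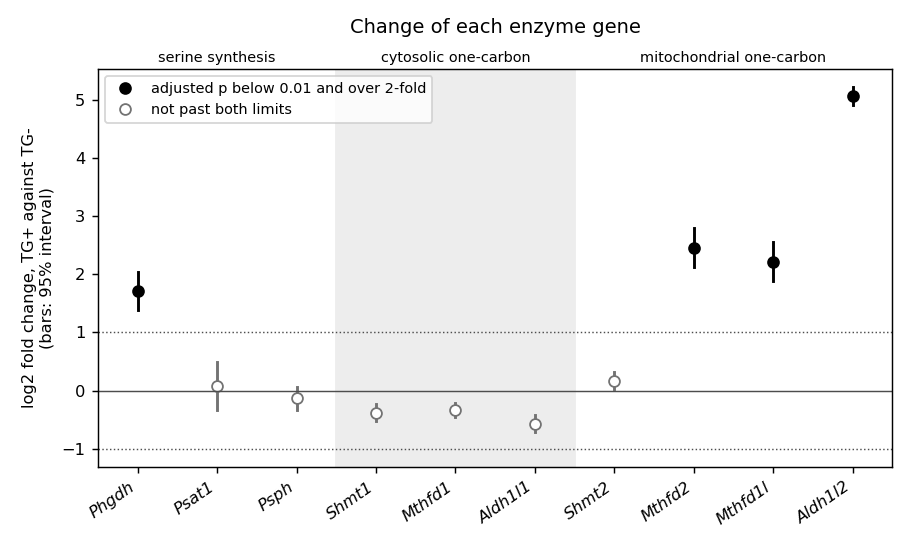
Log2 fold change of the 10 genes in TG+ against TG- kidney cortex with its 95% interval (n = 3 mice each), filled where the gene was called; the dotted lines mark 2-fold. The genes called are Phgdh at 1.72, Mthfd2 at 2.46, Mthfd1l at 2.22 and Aldh1l2 at 5.07, and the 3 cytosolic genes lie between -0.57 and -0.33.

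The cytosolic genes moved the other way. Aldh1l1, the cytosolic counterpart of Aldh1l2 (ENSMUSG00000030088, chromosome 6 from 90486427 to 90600203, plus strand), was measured at 362, 374 and 337 CPM in TG+ and at 502, 561 and 529 CPM in TG- mice. Every TG+ mouse was below every TG- mouse, as was the case for 20.8% of all genes tested. Aldh1l1 fell by 32.5%, from 530 ± 29.6 to 358 ± 19.1 CPM (SD, n = 3 each; log2 fold change -0.57, standard error 0.0656, adjusted p = 9.37e-04). Shmt1, the cytosolic hydroxymethyltransferase (ENSMUSG00000020534, chromosome 11 from 60788104 to 60811718, minus strand), was measured at 39.0, 42.9 and 44.2 CPM in TG+ and at 53.3, 54.1 and 56.8 CPM in TG- mice. Its groups did not overlap either, and it fell by 23.2% (log2 fold change -0.38, standard error 0.0630, adjusted p = 0.00445). Mthfd1, the cytosolic enzyme that joins the synthetase, cyclohydrolase and dehydrogenase activities in a single protein (ENSMUSG00000021048, chromosome 12 from 76255298 to 76319803, plus strand), was measured at 176.5, 176.4 and 187.5 CPM in TG+ and at 224.4, 225.6 and 229.7 CPM in TG- mice. It too had no overlap between the groups and fell by 20.5% (log2 fold change -0.33, standard error 0.0511, adjusted p = 0.00333).

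Genes lower by the rule without a minimum fold were more frequent among abundant genes than among all. Of the 5636 genes with a mean above 32 CPM, a limit that all 3 cytosolic genes exceed, 24.1% were lower at an adjusted p below 0.05 and 10.6% were higher. Proximal tubule markers fell as well, with 11 of 20 lower and 0 higher at an adjusted p below 0.05, a median log2 fold change of -0.32, and a summed level of 36960 to 39060 CPM in TG+ against 46730 to 50690 CPM in TG- mice. The organic anion transporter Slc22a6 (log2 fold change -1.09, standard error 0.0674, adjusted p = 4.82e-05) and the cytochrome Cyp4b1 (-1.07, standard error 0.0800, adjusted p = 1.28e-04) were called lower. Kap, the marker with the highest deposited RPKM in TG-, stood at -0.08 (adjusted p = 0.528). The part of these markers in the fall of the cytosolic enzymes was not tested. Aldh1l1 shares 499 of its 4516 exonic bases with Gm15756 on the other strand, which was also lower (log2 fold change -0.45, adjusted p = 0.00208), and Shmt1 shares 184 of its 3883 with Smcr8 (-0.20, adjusted p = 0.0810), so reads of these pairs may not be separate.

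Within each mouse, the ratio of the mitochondrial to the cytosolic gene needs no scaling of libraries, and 4 such ratios were compared on the log2 scale of counts. The ratio of Aldh1l2 to Aldh1l1 was -1.19, -1.23 and -1.13 in TG+ and -6.81, -6.82 and -6.85 in TG- mice, a difference of 5.64. The ratio of Mthfd2 to Mthfd1 was -3.58, -3.19 and -3.76 in TG+ and -6.16, -6.36 and -6.37 in TG- mice, a difference of 2.78. For Mthfd1l to Mthfd1 the values were -3.69, -3.80 and -3.91 in TG+ and -6.30, -6.10 and -6.73 in TG- mice, a difference of 2.58. In none of these did the groups come near each other. The ratio of Shmt2 to Shmt1 was 2.92, 2.68 and 2.65 in TG+ and 2.13, 2.30 and 2.16 in TG- mice, a difference of 0.55 with groups that did not overlap. For each ratio the 2-sided exact permutation p over the 20 assignments of mice was 0.1, the smallest that 3 against 3 mice allow, and it was also 0.1 after adjustment over the 4 ratios. The ratios are made of the same counts as the values of the single genes and are not further evidence for them.

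**Figure D3:**
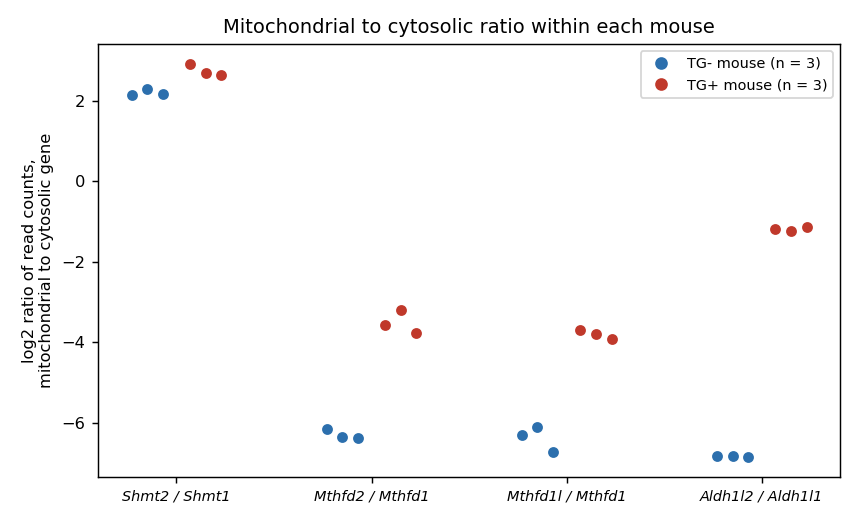
Log2 ratio of the read count of each mitochondrial gene to that of its cytosolic counterpart, each point a mouse (blue TG-, red TG+, n = 3 each), with no correction for length. The ratio of Aldh1l2 to Aldh1l1 had a mean of -6.82 in TG- and of -1.18 in TG+ mice, and that of Shmt2 to Shmt1 a mean of 2.20 and of 2.75.

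Levels of different genes can be compared only per length, and their order depended on the lengths used. The deposited RPKM values were averaged over the 2 kidneys of a mouse, and CPM was also divided by the kilobases (kb) that the exons of a gene cover in GENCODE. The gene lengths behind the RPKM are not given in the sources used here. With each library's reads on genes as the total, they work out at between 0.731 times the exonic length for Shmt2 and 3.08 times for Shmt1, with Aldh1l1 at 1.93 times and Mthfd2 at 1.02 times.

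In TG- cortex, Shmt2 at 111.3 ± 7.20, Aldh1l1 at 61.3 ± 3.30 and Mthfd1 at 26.1 ± 0.349 RPKM (SD, n = 3) were the upper 3 of the 10 genes. By CPM per kb of exons the first 2 changed places, with Aldh1l1 at 117.4 ± 6.56, Shmt2 at 80.7 ± 5.30 and Mthfd1 at 51 ± 0.629. Which of Shmt2 and Aldh1l1 was higher in TG- cortex is thus not settled by these data. Shmt1 at 4.63 ± 0.156, Psat1 at 4.21 ± 0.999 and Psph at 3.53 ± 0.173 RPKM came next. Their order was the same by CPM per kb, where Shmt1 stood at 14.1 ± 0.474, Psat1 at 8.41 ± 1.99 and Psph at 3.58 ± 0.183 and did not overlap, whereas by RPKM the values of Psat1 overlapped those of both neighbours. The other 4 genes lay below all of these on both scales, Mthfd2 at 0.830 ± 0.0668, Phgdh at 0.673 ± 0.0629, Aldh1l2 at 0.286 ± 0.0148 and Mthfd1l at 0.245 ± 0.0494 RPKM. The values of Mthfd2 and Phgdh overlapped by CPM per kb but not by RPKM, and those of Aldh1l2 and Mthfd1l overlapped on both. So in TG- cortex Mthfd2, Mthfd1l and Aldh1l2 were among the lowest 4 of the 10 genes by either length, and Shmt2, the fourth mitochondrial gene, was among the upper 2.

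In TG+ cortex the upper 4 places were the same on both scales, with Shmt2 at 122 ± 4.12, Aldh1l1 at 40.4 ± 2.07, Mthfd1 at 20.2 ± 0.810 and Aldh1l2 at 9.33 ± 0.142 RPKM (SD, n = 3). By CPM per kb Shmt2 stood at 90.8 ± 3.55, Aldh1l1 at 79.2 ± 4.24, Mthfd1 at 40.5 ± 1.43 and Aldh1l2 at 21 ± 0.365. Aldh1l2 had thus moved to the fourth place from the last but one by RPKM, or the last by CPM per kb, in TG-. Behind it the order turned with the lengths. By RPKM, Mthfd2 at 4.40 ± 0.787, Psat1 at 4.36 ± 0.793, Shmt1 at 3.46 ± 0.243 and Psph at 3.15 ± 0.314 each overlapped the next. By CPM per kb, Shmt1 at 10.8 ± 0.695 and Psat1 at 8.91 ± 1.59 came before Mthfd2 at 4.57 ± 0.839 and Psph at 3.27 ± 0.307. Phgdh at 2.13 ± 0.312 and Mthfd1l at 1.11 ± 0.0538 RPKM were the lowest. Their means were also the lowest by CPM per kb, but there the values of Phgdh overlapped those of both Psph and Mthfd1l. Even after its rise, Aldh1l2 was lower than Aldh1l1 in every TG+ mouse, at 9.17 to 9.41 against 38.2 to 42.3 RPKM and at 20.6 to 21.2 against 74.6 to 82.8 CPM per kb.

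The distance between the hydroxymethyltransferases depended on the lengths too, though not its direction. The level of Shmt2 was 24.1 times that of Shmt1 in TG- and 35.4 times in TG+ mice by RPKM, and 5.73 and 8.42 times by CPM per kb.

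**Figure D4:**
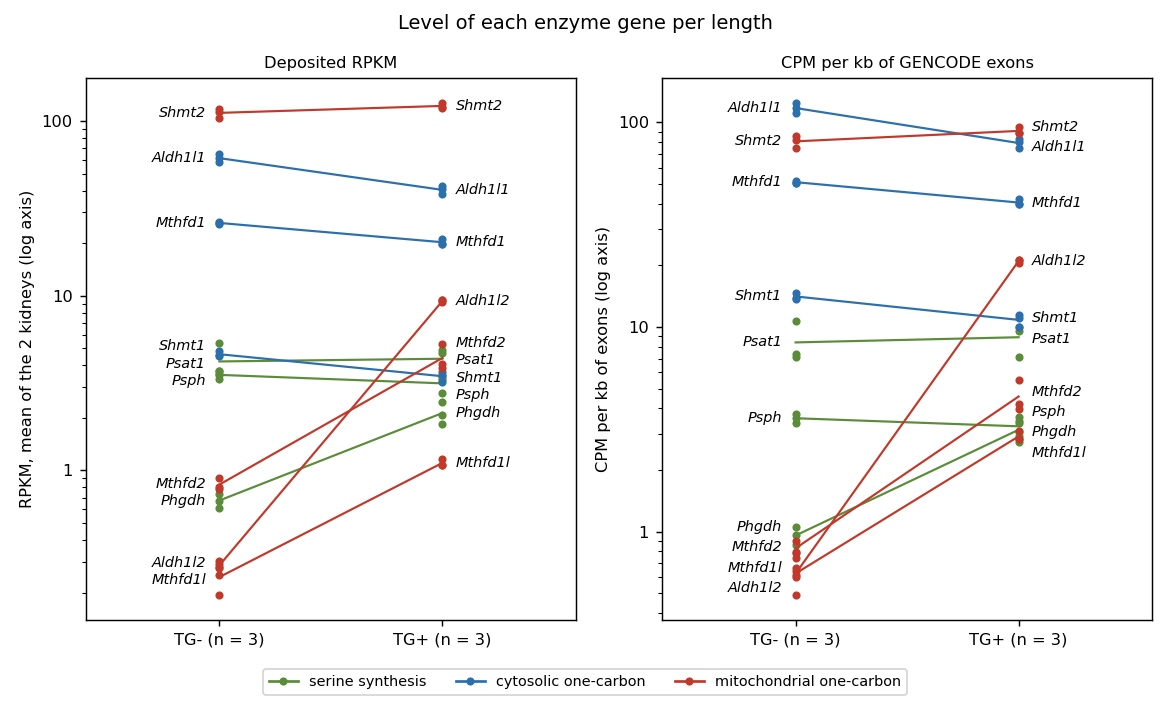
Level of the 10 genes per length on log axes in TG- and TG+ mice, as deposited RPKM (left, mean of the 2 kidneys) and as CPM per kb of exons (right), each point a mouse (n = 3 per genotype) and each line joining the group means. The line of Aldh1l2 rises to the fourth place in both panels, while in TG- Shmt2 lies above Aldh1l1 on the left (111.3 against 61.3) and below it on the right (80.7 against 117.4).

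The 2 kidneys of a mouse gave like values. For Shmt1, Mthfd1, Aldh1l1 and Shmt2 the higher kidney exceeded the lower by at most 1.06-fold in any mouse. The widest gap among the 10 genes was 1.41-fold, for Mthfd2 in the TG- mouse 43-26, at 2.62 and 3.68 CPM from 69 and 92 reads. For Aldh1l2 the 6 TG+ libraries lay between 150.0 and 170.2 CPM and the 6 TG- libraries between 3.94 and 5.04 CPM.

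Around these 10 enzymes, 6 further lists of the pathway were examined, with 59 genes of which 55 could be tested. None of the 55 was called in either direction, 4 were higher and 18 lower at an adjusted p below 0.05, and their median log2 fold change was -0.16, beside 0.012 over all genes tested. Without adjustment, 5 were higher and 28 lower at a p below 0.05, beside 21.9% and 17.2% of all genes, and DESeq2 called 0. Of 11 other folate enzymes 1 was higher and 2 lower. Of 10 folate and serine carriers 2 were higher and 2 lower, and Sfxn1, which carries serine into mitochondria, stood at -0.19 on the log2 scale (adjusted p = 0.0663). No carrier or further folate enzyme thus moved by as much as the 4 genes that were called.

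The lists of supply and use can be read against the 10.9% of all genes, and the 24.1% of genes above 32 CPM, that were lower at an adjusted p below 0.05; whether a list differs from these shares was not tested. Of 11 genes of glycine cleavage and of choline-derived supply 6 were lower and 0 higher at an adjusted p below 0.05, among them Pipox, the sarcosine and pipecolate oxidase, at 289.4 to 321.4 CPM in TG+ against 384.4 to 391.2 CPM in TG- mice (log2 fold change -0.34, adjusted p = 0.00479). Of 9 genes of serine and glycine use 4 were lower and 0 higher, while Gatm, which makes the creatine precursor guanidinoacetate from glycine, stood at 0.01 (adjusted p = 0.927). Of 6 methionine cycle genes 3 were lower and 0 higher, with Mat2a, the synthetase of the methyl donor, at -0.27 (adjusted p = 0.133). Of 8 purine synthesis genes 1 was higher and 1 lower, with Prps2 at -0.04 (adjusted p = 0.588).

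**Figure D5:**
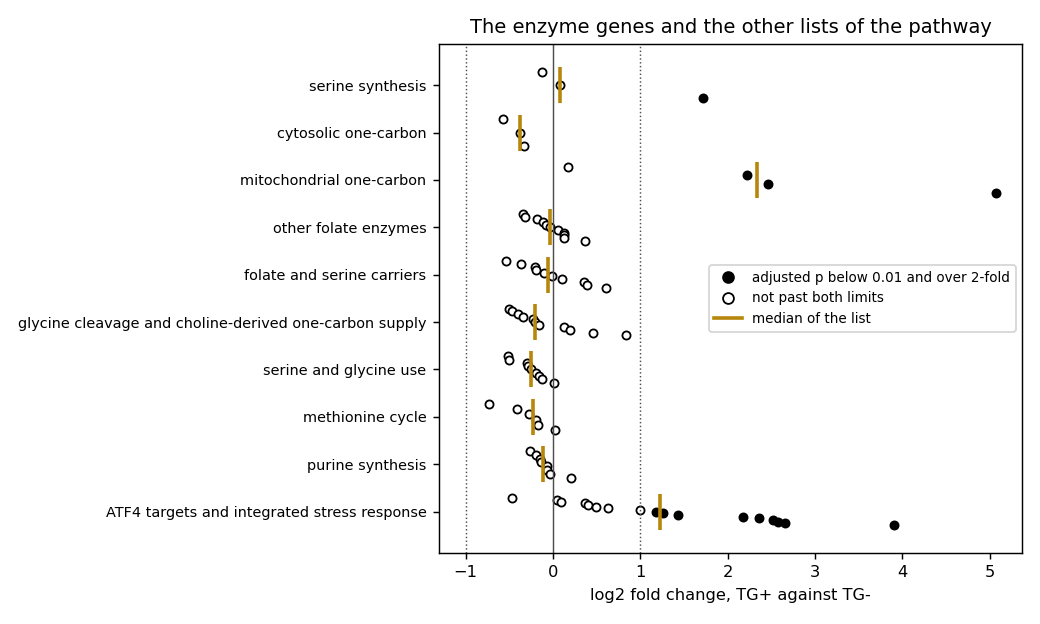
Log2 fold change in TG+ against TG- of each gene tested in the 3 groups of enzyme genes and in 7 further lists, filled where the gene was called, with the median of each list as a bar and dotted lines at 2-fold; Fgf21, with at most 2 reads in a TG- mouse, is not drawn. Filled points are seen only among the serine synthesis genes, the mitochondrial genes and the ATF4 list.

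Phgdh, Psat1, Psph, Shmt2, Mthfd2, Mthfd1l and Aldh1l2 are known as targets of ATF4, the transcription factor of the integrated stress response, so a list of 18 other ATF4 targets and genes of that response was set beside them. Of these, 10 were called higher and 0 lower, beside 3.77% and 0.211% of all genes tested. At an adjusted p below 0.05, 14 were higher, beside 15.4% of all genes, and the median log2 fold change was 1.22. This list, like the others, was chosen with earlier results of these data known. Trib3, a pseudokinase, rose from 1.05 ± 0.0754 to 15.7 ± 4.07 CPM (SD, n = 3 each, log2 fold change 3.90, standard error 0.22, adjusted p = 3.07e-05). Chac1, which degrades glutathione, rose from 0.882 ± 0.112 to 5.29 ± 0.536 CPM (2.58, standard error 0.15, adjusted p = 3.66e-05), and Ddit4, an inhibitor of mTOR that is also induced by HIF, from 14.8 ± 7.18 to 93.1 ± 13.4 CPM (2.66, standard error 0.30, adjusted p = 8.46e-04). Fgf21 was counted with 96, 195 and 88 reads in TG+ and with 1, 0 and 2 reads in TG- mice. Slc3a2, the gene of the list with the highest deposited RPKM in TG-, stood at 0.09 (adjusted p = 0.238), and Atf4 itself, named here after its value was seen, rose by less than 2-fold (log2 fold change 0.49, standard error 0.0919, adjusted p = 0.00763). Of the enzymes known as targets, Psat1 (0.08), Psph (-0.13) and Shmt2 (0.17) thus stood apart from the 4 that were called. The part of ATF4 in the rise of those 4 genes was not tested.

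Markers of other cells and of cell states were read beside the genes that rose. Of 16 immune cell markers 7 were called higher and 0 lower, beside 3.77% and 0.211% of all genes tested. At an adjusted p below 0.05, 12 were higher, beside 15.4% of all genes, and DESeq2 called 8 higher, beside 4.23%. Their summed level was 1200 to 1864 CPM in TG+ against 363 to 432 CPM in TG- mice and was mostly Igkc and Jchain. Among the markers called were the plasma cell genes Jchain (log2 fold change 2.54, adjusted p = 4.27e-04) and Igkc (2.27, adjusted p = 2.38e-04) and the B cell genes Cd79a (2.25, adjusted p = 0.00107) and Cd79b (1.23, adjusted p = 0.00545). The T cell genes Cd3e (1.17, adjusted p = 0.00243) and Cd4 (1.19, adjusted p = 0.0081) and the chemokine gene Ccl5 (1.16, adjusted p = 0.00604) were called too. They are named here after their values were seen. Of 12 proliferation markers 5 were higher and 0 lower at an adjusted p below 0.05 and 0 were called, with a summed level of 36.1 to 56.4 CPM in TG+ against 29.0 to 33.1 CPM in TG- mice; 7 were higher without adjustment, and DESeq2 called 3 higher, beside 21.9% and 4.23% of all genes. Mcm2, a replication helicase gene and the marker of these with the highest deposited RPKM in TG-, stood at 0.19 (adjusted p = 0.121). Of 10 tubule injury markers 7 were higher and 0 lower at an adjusted p below 0.05, 9 were higher without adjustment, and DESeq2 called 5 higher, to be read against the same shares. In edgeR's test 3 were called, namely Havcr1 (2.78, adjusted p = 0.00750), Krt19 (1.91, adjusted p = 0.00803) and Cd44 (1.49, adjusted p = 0.00104), with a summed level of 1050 to 1223 CPM against 839 to 1058 CPM that was mostly Spp1 (0.12, adjusted p = 0.367). The 12 markers of other nephron segments had 0 called, 1 lower at an adjusted p below 0.05 and a median of 0.10, with Umod, the uromodulin gene of the thick ascending limb, at 0.06 (adjusted p = 0.795). None of these lists held a marker without reads, and their part in the rise of Phgdh, Mthfd2, Mthfd1l and Aldh1l2 was not tested.

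The genes whose pattern over the 6 mice was most like that of Aldh1l2 were Kcne4, Elf3, ENSMUSG00000072566, Ntsr2 and Zpld1, with Pearson correlations of log2 CPM between 0.9985 and 0.9994. These are a description: 2 well separated groups of 3 mice make high correlations frequent, and 172 of the 16179 genes compared exceeded 0.99. Of the genes named here, 4 rose by between 0.73 (Zpld1) and 1.81 (Kcne4) on the log2 scale. Ntsr2, for which no fold change is given, stood at a mean of 3.66 CPM in TG+ and of 0.00650 CPM in TG- mice.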

How the data were processed

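The authors prepared TruSeq libraries from kidney cortex RNA, sequenced single-end reads and, by the methods, used mainly the Tuxedo tools; the submitters' processing notes name the mm9 build. The annotation, the counting program and the use of strand are not given in the sources used here. The deposited table holds raw read counts per gene for 12 libraries and RPKM values that the authors made (scaled by a method its header calls BUQ, proportional to the count plus 1). Its 12 log2 RPKM columns and the authors' own comparison (fold changes, p-values and q-values) were not used.

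Counts of the 2 kidneys of each mouse were summed, filtered with filterByExpr, scaled by TMM and tested with edgeR 4.0.16 (quasi-likelihood, limma 3.58.1, R 4.3.3), 3 TG+ against 3 TG- mice, adjusted over 19399 genes. The standard error is the log2 fold change divided by the square root of the F statistic, and 95% intervals use the t distribution. The procedure was tested on simulated data. Symbols and gene positions came from GENCODE M21 on GRCm38 through the Ensembl identifier, which matched 32642 of 37681 genes; promoter sequences came from RefSeq (GRCm38.p6). The labels give no sequencing batch. CPM per kb used the union of GENCODE exons. The alternatives were DESeq2 1.42.0, upper-quartile scaling, library size alone, centring on the median gene, no filter, each kidney as a library, a block for pairs of mice, leaving out each mouse, and other thresholds. The genes named are all 10 enzymes, Ndufa4l2, up to 4 called genes and the gene with the highest RPKM in TG- of each list (for 1 list it is not reported here), and the 5 genes most correlated with Aldh1l2 (log2 of CPM plus 0.1, mean of at least 1 CPM); genes that share exons with an enzyme and Hif1a were named beside them. The enzymes, the lists and the rules were chosen with earlier results of these data known. Tables and plots were made in Python 3.11.15 (pandas 2.3.3, matplotlib 3.10.9, numpy 2.4.6, scipy 1.17.1).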

Additional observations from a re-analysis of the deposited data

How the results depend on the processing

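The 4 genes called higher were also 4 under every scaling, filter, tool, library and left-out mouse that was tried, and 0 were called lower except without a minimum fold, which gave 3 at an adjusted p below 0.05 or below 0.01. For the 73 other genes tested, the ATF4 list included, the same change gave 18 higher (from 10, all in that list) and 18 lower (from 0) at an adjusted p below 0.05, and 14 higher and 10 lower at 0.01. Library size alone shifted the median of all genes to 0.13 on the log2 scale from 0.012, and under it Shmt2 met the rule without a minimum fold (log2 fold change 0.29, adjusted p = 0.00858), as it did with each kidney as its own library (0.18, adjusted p = 0.00347), where the kidneys of a mouse count as independent. With each mouse left out, Shmt2 stayed between 0.12 and 0.21, and Psat1 lay between -0.0266 and 0.29, below 0 without 43-26 (-0.0266), 43-49 (-0.0149) or 43-76 (-0.0008). The falls of Shmt1, Mthfd1 and Aldh1l1 kept an adjusted p of at most 0.0249, 0.0193 and 0.00670 over the alternatives. They were smallest under library size alone, with log2 fold changes of -0.26, -0.21 and -0.45. The 4 ratios kept their direction with each mouse left out, when that of Shmt2 to Shmt1 lay between 0.47 and 0.60. The table's name joins mice in pairs, but the labels do not say that these are matched, and they were not taken as matched. Deviations of paired mice correlated at 0.283, 0.307 and -0.0599. Unpaired mice were not compared in this way, so these values cannot decide whether the pairs are matched. A block for the pairs changed no call among the 10 genes. CPM per kb of exons in place of RPKM, tried after the data had been seen, turned the log2 ratio of the levels of Shmt2 to Aldh1l1 in TG- (to -0.54 from 0.86) and of Shmt1 to Mthfd2 in TG+ (to 1.27 from -0.32), and moved but did not turn 6 others. Among the 10 genes, the TG- values of Phgdh, Mthfd2 and Mthfd1l rest on the fewest reads, with as few as 105 in a mouse. Some genes named from the other lists rest on fewer, such as Trib3 with 58, 56 and 51 reads in the TG- mice.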
